A study of Mus musculus with 8 samples.

Results

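The deposited merged annotation of mouse macrophage RNA holds 403 transcripts, of 89219 in all, that were assembled from the reads and marked as lying over exons of an annotated transcript on the opposite strand (class code x of the Cufflinks tools). They fall in 264 loci, 61 of which hold more than 1 such antisense transcript, and 402 of the 403 have a measured level. Each was paired with the locus on the other strand that holds its nearest reference transcript, here called the sense partner, which gave 258 partner loci. A partner locus was called coding where any of its transcripts carries a protein identifier in the annotation, and 235 of the partner loci were coding and 23 were not. The cells were bone marrow-derived macrophages of C57BL/6 mice, either left untreated or treated with IL-4, with 4 biological replicates in each group. The labels give no dose or duration of IL-4 and do not say whether the replicates came from separate mice. Each p-value below sets the difference between the groups against the spread of these libraries, which need not be a spread between mice. RNA was depleted of ribosomal RNA, and libraries followed a TruSeq RNA protocol. All positions are in mm9, and loci are named by position because the files carry no gene symbols; for the same reason the labelled cell type was not checked against marker genes here.

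Natural antisense transcripts are RNAs copied from the strand opposite to another gene. Some begin near the promoter of the sense gene and run away from it or through it, some meet it at the 3′ ends, and some lie wholly within it, and well-studied members of the class can act on the sense gene through its chromatin, its transcription or its RNA. IL-4 is a cytokine of type 2 immunity that signals through STAT6 and moves macrophages to the state often called alternatively activated, with changes at many genes.

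Most of the antisense transcripts lay inside the gene they opposed. The span of 234 of them was contained in the span of the partner, 47 contained the partner, 87 overlapped it with the 3′ ends facing and 35 with the 5′ ends facing. Over exons alone, 188 antisense transcripts shared at least 50% of their exonic nucleotides (nt) with the partner, 51 of them all, while 133 shared a smaller part and 82 shared none. The median antisense transcript shared 1859 nt, which was 42.3% of its own exonic length (quartiles 2.66% and 89.2%) and 24.4% of the exonic length of the partner. The longest shared stretch was 43239 nt. Of the 82 that shared no exonic nt with the partner, 77 shared none with any locus on the other strand either. Contact with the last exon of the nearest reference transcript was more frequent, at 216 antisense transcripts, than contact with its first exon, at 131. The lengths of these exons were not taken into account, and the exon of a single-exon reference counts as both first and last.

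**Figure D1:**
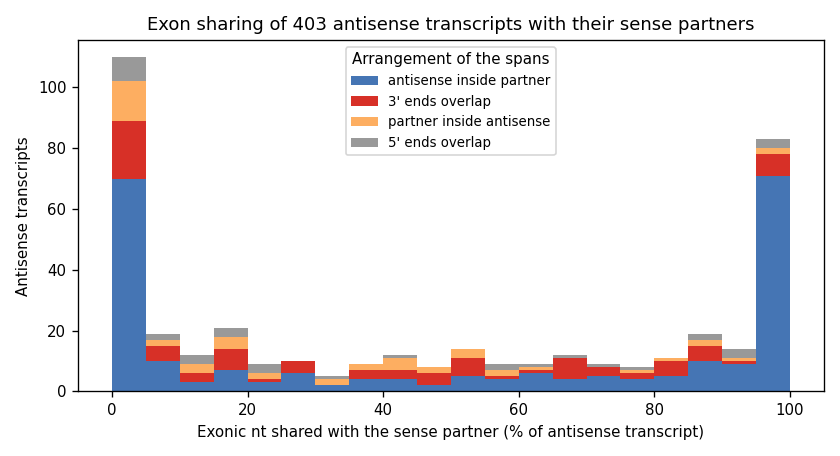
Histogram of the exonic nt that each of the 403 antisense transcripts shares with its sense partner, as a percent of its own exonic length (x axis, bins of 5 percentage points), against the number of transcripts (y axis), stacked by how the spans of both sides lie. The transcripts pile up at both ends of the axis, and most of those near 100% lie inside the partner.

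The antisense transcripts were long-exon, few-exon structures. Of the 403, 56 had 1 exon, 229 had 2 and 118 had 3 or more, and the exonic length ran from 241 to 133542 nt with a median of 4776 nt. Among multi-exon transcripts the median longest exon was 3873 nt in the 347 antisense transcripts and 1167 nt in the 51724 reference transcripts, with a median of 2 exons against 7. No intron of an antisense transcript had the same ends as an intron of its partner. An exon of 10 nt or less occurred in 3 of the 347 multi-exon antisense transcripts (0.865%) and in 167 of the reference ones (0.323%).

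Antisense levels were low. FPKM (fragments mapped to a transcript, scaled to its length in kilobases and to library depth) averaged over the 8 libraries had a median of 0.252 among antisense transcripts and 4.94 among their partners, where the level of a locus is the sum over its transcripts. The mean was under 0.1 FPKM for 111 antisense transcripts, between 0.1 and 1 for 237, between 1 and 10 for 47, and 10 or more for 7. In the median pair the antisense side had 9.25% of the level of the partner (quartiles 1.61% and 69.2%). The antisense side was the higher one in 89 pairs, but in only 4 of these did the partner itself reach 1 FPKM. The median level was 0.2503 FPKM where no exonic nt was shared and 0.2517 FPKM where some was.

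**Figure D2:**
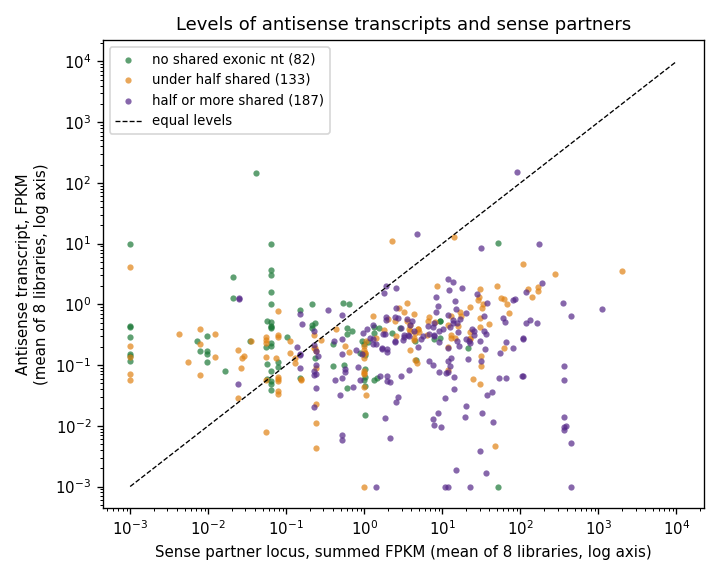
Mean FPKM of each antisense transcript (y axis, log scale) against the mean summed FPKM of its sense partner (x axis, log scale) over 8 libraries, for 402 pairs coloured by the share of exonic nt in common; values below 0.001 are drawn at 0.001 and the dashed line marks equal levels. Most points lie below the line, and most of the points above it have a partner under 1 FPKM.

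Total counts per library ran from 23071022 to 27783417. Both libraries of replicate 4 held chromosome Y reads (5808 counts in the untreated and 5525 in the IL-4 one), whereas the other 6 libraries held between 0 and 7, and calls of named transcripts lost without the replicate 4 pair are given beside them. The TruSeq RNA kit does not mark the strand of the RNA, and no source used here states the strand setting of the counting. Reads over exons shared by both strands therefore cannot be told apart by strand. The same holds for reads over antisense exons that lie in partner introns. In the median antisense transcript 29.7% of the exonic nt lay in partner introns.

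To ask which antisense transcripts respond to IL-4, FPKM was compared between the groups on the log2(FPKM + 0.1) scale with limma, over all transcripts that reached 1 FPKM in at least 4 libraries. All fold changes from limma below are on this scale. Where a level is near the added 0.1, they are smaller than the ratio of the FPKM values themselves. Of the antisense transcripts, 60 in 54 loci passed that filter and 342 did not; 14.9% passed, against 19.6% of all transcripts with a measured level. At an adjusted p under 0.05, 35 of the 60 were called (58.3%, against 38.4% of all 17500 transcripts tested): 20 rose (33.3%, against 19.8%) and 15 fell (25%, against 18.5%). The change was at least 2-fold for 11 of the rises (18.3% of the 60, against 5.74% of all transcripts tested) and 7 of the falls (11.7%, against 6.1%). The median log2 fold change was -0.07 among the 60 and 0.00 among all transcripts tested. The filter admits a transcript through either group: 10 of the 60 reached 1 FPKM in all libraries of the IL-4 group only, and all 10 rose, while 8 did so in the untreated group only, and 6 of these fell. Untreated and IL-4 libraries did not overlap in FPKM for 40 of the 60 (66.7%, against 38.9% of all transcripts tested), namely 19 of the 20 rises, all 15 falls and 6 of the 25 transcripts not called. The part of the filter in these shares was not tested. In bulk RNA, a change in the number of cells of a type and a change in the RNA of each cell cannot be told apart.

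**Figure D3:**
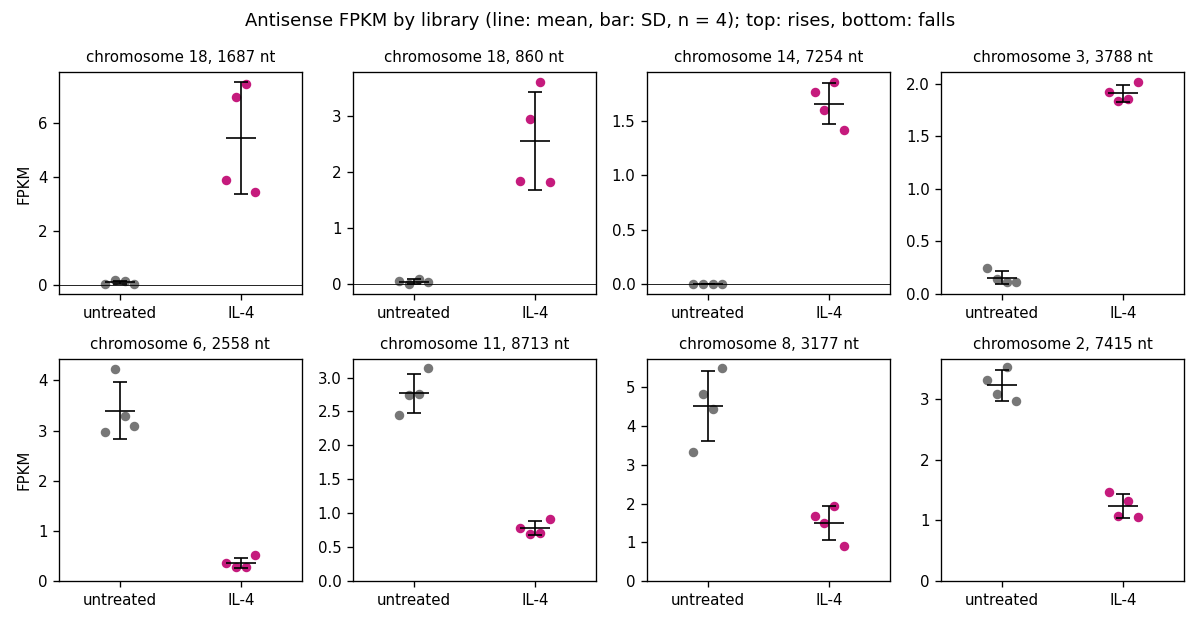
FPKM (y axis) in each of the 4 untreated and 4 IL-4 libraries for the 4 largest rises (top row) and the 4 largest falls (bottom row) by fitted log2 fold change; points are libraries, the long line is the mean and the bar its SD, with the exonic length above each panel. No untreated library overlaps an IL-4 library in any panel, and the chromosome 14 transcript is listed at 0 in every untreated library.

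The first group of responding antisense transcripts had a partner that was itself barely expressed. In 12 called transcripts of 8 loci the partner did not reach 1 FPKM in 4 libraries, with mean partner levels between 0.000906 and 0.539 FPKM; 8 of the 12, in 6 loci, rose and 4, in 2 loci, fell.

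Among transcripts that passed the FPKM filter, the largest rise belonged to an antisense locus on chromosome 18 whose longest called isoform (TCONS_00037305, 62904107 to 62925602, 3 exons, 1687 nt) encloses a non-coding partner (62911328 to 62916001) within its intron and shares no exonic nt with it. Its FPKM in untreated replicates 1 to 4 was 0.0566, 0.176, 0.148 and 0.0348, and in IL-4 replicates 1 to 4 it was 3.91, 6.99, 7.46 and 3.46. Every IL-4 library exceeded every untreated one, and within the IL-4 group replicates 2 and 3 were above replicates 1 and 4. The fitted log2 fold change was 4.75 ± 0.35 (SE), a 27.0-fold rise on the log2(FPKM + 0.1) scale (adjusted p = 1.62e-05, limma). The second isoform of the locus (62904107 to 62922935, 860 nt) rose from 0.0476 ± 0.0415 to 2.54 ± 0.875 FPKM (mean ± SD, n = 4; log2 fold change 4.15, adjusted p = 2.98e-05, limma). Reads assigned to the locus numbered 5, 12, 14 and 6 in the untreated libraries and 346, 678, 612 and 317 in the IL-4 ones. The partner was listed at 0 in every untreated library and between 0.0242 and 0.0792 FPKM with IL-4.

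On chromosome 3, an antisense locus inside the coding locus at 31101778 to 31209241 had a pair of isoforms that rose together. The 5323-nt isoform (TCONS_00049444, 31131761 to 31139912, 55.7% of its exonic nt shared) had 0.263, 0.225, 0.270 and 0.105 FPKM in the untreated libraries and 2.29, 2.31, 2.41 and 2.39 FPKM in the IL-4 libraries. The IL-4 libraries were tightly grouped and lay far above the untreated ones; the rise was 7.97-fold (adjusted p = 2.32e-05, limma). The other isoform (31131840 to 31150179, 2117 nt, 67.3% shared) rose 7.37-fold (adjusted p = 5.73e-05, limma). The partner stayed between 1.19e-06 and 0.0564 FPKM in all 8 libraries, with overlapping groups.

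A further rise on chromosome 3 (87289084 to 87317649, 2 exons, 3788 nt) overlapped a coding locus at the 3′ end of both but shared no exonic nt with it. Its FPKM was 0.247, 0.140, 0.114 and 0.114 in the untreated and 1.92, 1.84, 1.86 and 2.01 in the IL-4 libraries. The groups were wide apart, an 8.08-fold rise (adjusted p = 2.37e-05, limma). The partner, at 0.1002 ± 0.0333 FPKM untreated and 0.329 ± 0.0649 FPKM with IL-4 (mean ± SD, n = 4), was below the filter, and by read counts it rose as well (log2 fold change 1.53 ± 0.22 SE, adjusted p = 0.000177, edgeR).

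The remaining large rise opposite a low partner was on chromosome 17 (71009247 to 71031720, 4 exons, 3556 nt, 8.02% shared), inside a coding locus spanning 70318708 to 71170753. FPKM was 0.0782, 0.218, 0.140 and 0.0880 untreated and 1.51, 1.65, 1.31 and 1.24 with IL-4, a 6.75-fold rise with no overlap (adjusted p = 0.000102, limma). The locus also holds reference transcripts, so its 244 to 415 untreated and 2744 to 3956 IL-4 reads are not those of the antisense transcript alone. The partner had at most 0.0142 FPKM untreated and 0.0659 to 0.214 FPKM with IL-4.

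Of the 4 falls opposite a low partner, 3 came from a locus on chromosome 8 with 15 antisense isoforms, the most of any locus, which shared no exonic nt with the non-coding transcript opposite (130666470 to 130821371, at most 0.156 FPKM). Its 3177-nt isoform (130691544 to 130776092) had 3.33, 4.83, 4.44 and 5.50 FPKM untreated and 1.68, 1.502, 1.94 and 0.914 FPKM with IL-4. All IL-4 libraries were below all untreated ones, a 2.92-fold fall (adjusted p = 0.00101, limma). The 661-nt isoform fell from 13.5 ± 1.77 to 6.57 ± 1.12 FPKM and the 2647-nt isoform from 2.07 ± 0.191 to 1.12 ± 0.255 FPKM (mean ± SD, n = 4; adjusted p = 0.000515 and 0.00511, limma). By counts the whole locus fell by 0.88 ± 0.18 on the log2 scale (SE; adjusted p = 0.00178, edgeR). The remaining fall, mentioned to complete the count and chosen after its values were seen, was a single-exon transcript on chromosome 4 (63049130 to 63053154) that went from 1.33 ± 0.0765 to 0.787 ± 0.144 FPKM (mean ± SD, n = 4; adjusted p = 0.0110, limma). The non-coding locus opposite it had 0.691 ± 0.0979 and 0.387 ± 0.0869 FPKM.

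The second group of responding antisense transcripts had an expressed partner, and here both sides could be compared. Of the 60 tested antisense transcripts, 44 had a partner that also passed the filter. Both sides were called in 15 of these pairs (15 antisense and 15 partner loci), and in all 15 the direction was the same, with 8 pairs rising and 7 falling (34.1% of pairs). Among all 3292 transcripts of any class with an exonic partner on the opposite strand, both sides were called in the same direction in 13.2% and in opposite directions in 7.65%. The 44 pairs include 1 without shared exonic nt, a kind left out of the 3292. The partner loci as a set changed about as often as loci in general: 109 of 194 tested were called (56.2%, against 51.3% of all 10946 loci), 60 higher (against 25.9%) and 49 lower (against 25.4%). With the replicate number as a block, 1 pair was called in opposite directions, described below.

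The most extreme pair was on chromosome 14, where an antisense transcript (51868686 to 51884264, 2 exons, 7254 nt) covers most of a coding locus (51868686 to 51876313) and shares 4200 nt, 57.9% of its own exonic length and 89.3% of that of the partner. The antisense transcript was at 0 in each untreated library and had 1.77, 1.601, 1.86 and 1.42 FPKM with IL-4 (adjusted p = 1.36e-05, limma). The partner was likewise listed at 0 without IL-4 and reached 2087, 2218, 2467 and 2228 FPKM with IL-4 (adjusted p = 9.73e-15, limma). Both sides therefore went from no listed signal to signal in every IL-4 library, at levels that differed widely, the antisense side at 0.0739% of the partner. No fold change is given for either, because with 0 in every untreated library the fitted value is set by the pseudocount. The read counts of the partner were 2, 1, 1 and 2 in the IL-4 libraries, against 107, 103, 93 and 72 for the antisense locus, which also holds a reference transcript. The FPKM was thus higher on the partner side and the counts on the antisense side. Few reads were counted on either side for the FPKM of the partner, so the counts do not show where the reads behind that FPKM lie.

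On chromosome 8 an antisense transcript of 2670 nt (12970796 to 12977393) within a long coding locus (12873827 to 13022750) shared only 115 nt, 4.31% of its exonic length. Its FPKM was 0.155, 0.327, 0.266 and 0.149 untreated and 1.31, 1.39, 1.36 and 1.05 with IL-4. Every IL-4 library was above every untreated one, a 4.34-fold rise (log2 fold change 2.12 ± 0.27 SE, adjusted p = 0.000354, limma). The partner rose more, from 2.13 ± 0.551 to 31.8 ± 6.46 FPKM (mean ± SD, n = 4; log2 fold change 3.85 ± 0.20 SE, adjusted p = 4.57e-07, limma). Read counts moved likewise on both sides, with log2 fold changes of 2.74 for the antisense locus and 3.77 for the partner (adjusted p = 1.91e-06 and 5.15e-08, edgeR). Most exonic nt of this antisense transcript lie in partner introns, where reads cannot be told apart by strand. Whether these reads come from the partner was not tested.

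A single-exon antisense transcript on chromosome 7 (142814674 to 142818587, 3914 nt) lay in an intron of a coding locus (142729507 to 142880014) and shared no exonic nt with it. Its FPKM was 3.96, 3.87, 3.75 and 4.53 untreated and 15.3, 16.5, 17.7 and 15.4 with IL-4. The groups did not overlap, and the rise was 3.95-fold (adjusted p = 9.66e-07, limma). Reads of this single-exon transcript cannot be told by strand from reads of the partner intron around it. Whether they come from the partner was not tested. The partner rose 4.89-fold, from 17.1 ± 0.571 to 85.0 ± 14.8 FPKM (mean ± SD, n = 4; adjusted p = 3.90e-07, limma).

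At the other end of sharing, an antisense transcript on chromosome 3 (60799511 to 60816134, 2 exons, 15976 nt) shared 13677 nt with its coding partner, 85.6% of its own exonic length. FPKM was 0.712, 0.914, 0.932 and 0.838 untreated and 2.71, 2.58, 2.49 and 2.72 with IL-4, a 2.88-fold rise without overlap (adjusted p = 3.34e-05, limma). The partner rose from 5.76 ± 0.483 to 18.7 ± 0.715 FPKM (mean ± SD, n = 4; log2 fold change 1.68 ± 0.07 SE, adjusted p = 1.35e-07, limma). Here almost all counted reads were on the antisense locus, at 250 to 368 untreated and 860 to 1035 with IL-4. The partner held 0 to 4 counted reads, although its FPKM was the higher one.

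**Figure D4:**
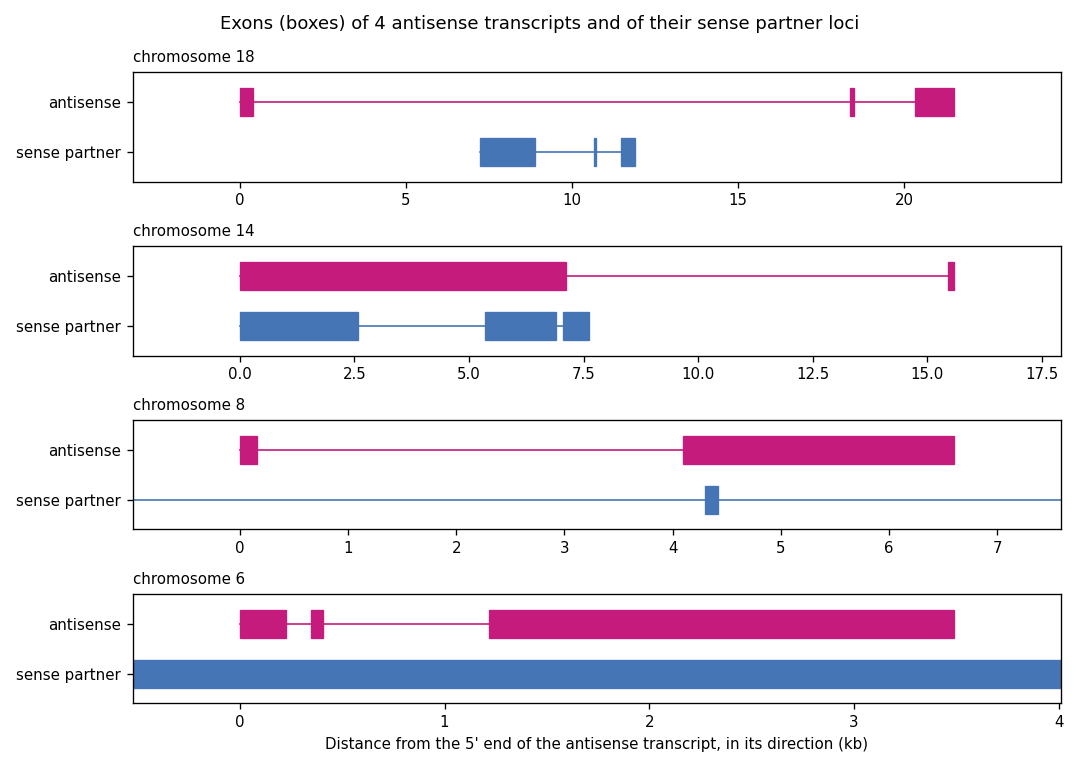
Exons (boxes) of 4 antisense transcripts (upper track) and of all exons of their sense partner loci (lower track), by distance in kb from the 5′ end of the antisense transcript, each panel to its own scale. From the top: the chromosome 18 transcript whose partner lies in its intron, the chromosome 14 transcript that shares 57.9% of its exonic nt, the chromosome 8 transcript that shares 4.31%, and the chromosome 6 transcript that lies wholly in a partner exon.

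The largest fall was that of a 3-exon antisense transcript on chromosome 6 (TCONS_00067654, 82951639 to 82955126, 2558 nt) whose exons lie entirely within exons of a coding partner (82896916 to 82983996). Its FPKM was 2.96, 4.22, 3.30 and 3.10 untreated and 0.365, 0.277, 0.289 and 0.513 with IL-4. The 2 groups were far apart, a 7.66-fold fall (log2 fold change -2.94 ± 0.21 SE, adjusted p = 1.32e-05, limma). The partner fell less, from 4.02 ± 0.0581 to 1.05 ± 0.177 FPKM (mean ± SD, n = 4; log2 fold change -1.85 ± 0.11 SE, adjusted p = 1.41e-06, limma). No read was counted for the antisense locus in any library, so its change is seen in FPKM only.

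An antisense transcript on chromosome 11 (TCONS_00011199, 83459699 to 83468725, 3 exons, 8713 nt, 14.03% shared) encloses a coding partner (83461345 to 83462880). FPKM was 2.44, 2.74, 2.75 and 3.15 untreated and 0.781, 0.697, 0.714 and 0.920 with IL-4, a 3.27-fold fall without overlap (adjusted p = 3.06e-05, limma). The partner fell from 39.3 ± 5.001 to 21.6 ± 3.8 FPKM (mean ± SD, n = 4; log2 fold change -0.87 ± 0.13 SE, adjusted p = 0.000550, limma).

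Smaller falls on both sides were found at 2 antisense transcripts inside coding loci. At chromosome 4 (124374039 to 124387897, 13751 nt, 41.6% shared) antisense FPKM was 1.17, 1.28, 1.26 and 1.13 untreated and 0.571, 0.494, 0.504 and 0.468 with IL-4, a 2.16-fold fall (adjusted p = 0.000985, limma). The partner fell from 37.0 ± 1.68 to 27.4 ± 0.601 FPKM (mean ± SD, n = 4; adjusted p = 8.67e-05, limma), but with its level taken from its most abundant transcript the log2 fold change was -0.04 (adjusted p = 0.695, limma). At chromosome 1 (39603736 to 39634469, 30328 nt, 52.8% shared) antisense FPKM was 1.10, 2.11, 1.81 and 1.604 untreated and 0.680, 0.967, 0.796 and 0.451 with IL-4, a 2.14-fold fall (adjusted p = 0.0110, limma). Its partner fell from 86.7 ± 3.98 to 76.1 ± 3.56 FPKM (mean ± SD, n = 4; adjusted p = 0.0187, limma), a call lost without untreated replicate 2 (0.0608) and without both replicate 4 libraries (0.0833).

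Other antisense transcripts fell while the partner was not called. At chromosome 2 a transcript of 7415 nt (25213453 to 25222023, 67.0% shared) had 3.32, 3.09, 3.53 and 2.96 FPKM untreated and 1.47, 1.08, 1.33 and 1.06 FPKM with IL-4, a 2.51-fold fall without overlap (adjusted p = 0.000102, limma). Its coding partner had 197 ± 24.4 FPKM untreated and 179 ± 25.8 FPKM with IL-4 (mean ± SD, n = 4; adjusted p = 0.341, limma), with overlapping groups; taken from its most abundant transcript the partner fell by 0.58 on the log2 scale (adjusted p = 0.00360, limma). At chromosome 11 (102289156 to 102298230, 6921 nt, 39.5% shared), facing its coding partner with the 3′ end, antisense FPKM was 4.24, 3.81, 4.09 and 3.73 untreated and 2.67, 2.23, 2.27 and 2.36 with IL-4, a 1.64-fold fall (adjusted p = 0.000453, limma). The partner, at 291 ± 50.0 and 264 ± 44.6 FPKM (mean ± SD, n = 4), was not called (adjusted p = 0.445, limma).

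The pair that came closest to opposite changes was on chromosome 17, where an antisense transcript (71188633 to 71220371, 3 exons, 15453 nt) contains all exons of a coding partner (71193545 to 71202872). Its FPKM was 1.08, 1.32, 1.14 and 1.20 untreated and 0.629, 0.564, 0.647 and 0.684 with IL-4, a 1.76-fold fall without overlap (adjusted p = 0.00441, limma). The partner had 19.0, 23.0, 21.4 and 21.7 FPKM untreated and 21.4, 25.3, 25.7 and 23.7 FPKM with IL-4, and the groups overlapped. Its log2 fold change of 0.17 ± 0.08 (SE) was not called (adjusted p = 0.0961, limma), and was called with the replicate block (0.0258), without IL-4 replicate 1 (0.0383) and with the level of its most abundant transcript (0.0450).

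The 5 antisense transcripts with the highest mean FPKM were all called higher with IL-4, by 1.20- to 1.499-fold, against 19.8% of all transcripts tested. Those of 605, 241 and 392 nt had at most 1 counted read in any library, so their rank rests on FPKM alone. The highest, on chromosome 18 (48206301 to 48229271, 605 nt, 88.6% shared with its coding partner), had 124, 125, 136 and 123 FPKM untreated and 178, 184, 202 and 138 FPKM with IL-4. The groups were apart by a narrow margin at IL-4 replicate 4, and the rise was 1.37-fold (adjusted p = 0.0114, limma; 0.0549 without a filter on FPKM and 0.0705 after quantile normalization). Its partner rose alongside, from 77.2 ± 4.29 to 106 ± 13.7 FPKM (mean ± SD, n = 4; adjusted p = 0.00299, limma), yet each side received between 0 and 4 counted reads per library.

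Next came the shortest of all antisense transcripts, 241 nt on chromosome 1 (55438771 to 55501906), with exons of 236 and 5 nt and with 90.2, 137, 118 and 124 FPKM untreated and 190.1, 163, 177 and 166 FPKM with IL-4. No library overlapped between the groups, a 1.499-fold rise (adjusted p = 0.00544, limma). It shared no exonic nt with the partner that holds its nearest reference, but all of its exonic nt lay over another locus on the opposite strand, and no read was counted for it in any library.

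A 392-nt transcript wholly within exons of a coding locus on chromosome 17 (27984939 to 27989018) had 12.9 ± 1.58 FPKM untreated and 15.5 ± 0.780 FPKM with IL-4 (mean ± SD, n = 4), and its groups overlapped. No read was counted for this transcript in any library. It is the single rise with overlap, and its call (adjusted p = 0.0471, limma) was lost with the replicate block (0.0758), without a filter on FPKM (0.124), after quantile normalization (0.123), without both replicate 4 libraries (0.123) and when any library other than untreated replicate 2 was left out (0.0649 to 0.113). On chromosome 12 a transcript facing its coding partner with the 5′ end (103206304 to 103218828, 5221 nt, 9.10% shared) had 9.96, 11.8, 11.6 and 11.5 FPKM untreated and 15.5, 12.9, 14.8 and 14.6 FPKM with IL-4, a 1.29-fold rise without overlap (adjusted p = 0.00714, limma). Its partner, at 13.7 ± 0.419 and 14.7 ± 0.168 FPKM (mean ± SD, n = 4), was not called (adjusted p = 0.101, limma). The fifth, on chromosome 11 (6365765 to 6393168, 10000 nt, 9.28% shared), had 8.66, 9.66, 10.3 and 9.54 FPKM untreated and 12.3, 12.8, 12.5 and 12.1 FPKM with IL-4, a 1.30-fold rise without overlap (adjusted p = 0.00199, limma); its small coding partner, at 2.24 ± 0.360 and 2.29 ± 0.372 FPKM (mean ± SD, n = 4), was not called (adjusted p = 0.868, limma).

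Over the 44 pairs with both sides tested, the log2 fold changes of the antisense transcript and of its partner had the same sign in 35. Their Pearson correlation was 0.80 and Spearman's rho 0.77 (n = 44 pairs), which describe these pairs only, since both sides come from the same 8 libraries and in most pairs from partly shared exons. Leaving out the chromosome 14 pair gave a Pearson correlation of 0.85. Among the 21 pairs with under 50% of the exonic nt shared the coefficients were 0.88 and 0.80, and among the 22 with 50% or more they were 0.82 and 0.74. The latter set holds the chromosome 14 pair, and its coefficients without that pair were not computed. Low sharing does not free a pair of the strand limit, because reads over partner introns cannot be told apart by strand either. A called antisense transcript had a tested partner that was not called in 8 pairs (4 rises and 4 falls), and 9 antisense transcripts that were not called had a partner that was (5 higher and 4 lower). Neither pattern shows that one side stayed the same. By exon sharing, 6 of the 13 tested antisense transcripts without shared nt rose and 4 fell (8 loci in all), against 6 and 8 of the 23 with under 50% shared and 8 and 3 of the 24 with 50% or more.

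**Figure D5:**
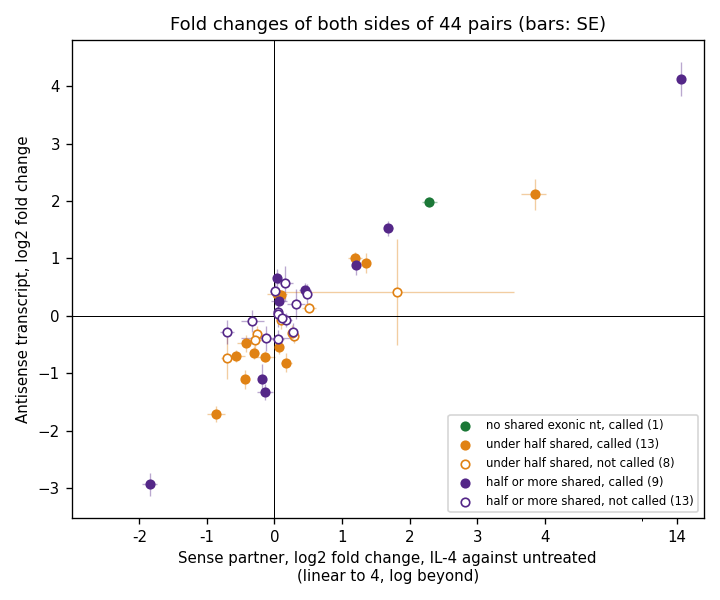
Log2 fold change, IL-4 against untreated, of the antisense transcript (y axis) and of its sense partner (x axis, linear to 4 and log beyond) for the 44 pairs with both sides tested; bars are SE, colours give the share of exonic nt in common and filled points mark called antisense transcripts. Of the 44 pairs, 35 have the same sign on both axes; the pair at the far right is that of chromosome 14, whose position is set by the pseudocount.

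To ask directly whether the sides moved apart, the log2 ratio of antisense to partner FPKM was compared between the groups in every transcript with an exonic partner on the other strand. Among the antisense transcripts 43 were tested and 18 were called (41.9%, against 38.7% of 3292), 16 of them lower with IL-4 (37.2%, against 17.6%) and 2 higher (4.65%, against 21.1%). The median change of the ratio was -0.18 on the log2 scale in the 43, of which 33 were below 0, and 0.02 in all pairs tested. Of the 16 lower ratios, 9 belonged to antisense transcripts that fell (5 with a falling partner and 4 with a partner not called). A further 5 belonged to antisense transcripts not called (4 with a rising partner), and 2 to rising pairs in which the partner rose more. These rising pairs include that of chromosome 14, with both sides at 0 in every untreated library. The size of its ratio change is therefore set by the pseudocount. With the replicate block 15 ratios were called, and without both replicate 4 libraries 10 were, 9 lower and 1 higher.

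The lowest ratio with signal on both sides in both groups was that of the chromosome 8 rise at 12970796, which fell by 1.73 ± 0.20 on the log2 scale (SE; adjusted p = 0.000285, limma). The chromosome 2 transcript at 25213453 followed, with a ratio change of -1.19 ± 0.19 (adjusted p = 0.00160, limma), and then the chromosome 6 transcript with -1.09 ± 0.18 (adjusted p = 0.00203, limma). At the chromosome 17 transcript at 71188633 the change was -0.99 ± 0.16 (adjusted p = 0.00169, limma). Ratios at the falls of chromosome 1 (-0.91), chromosome 11 at 83459699 (-0.84), chromosome 4 (-0.68) and chromosome 11 at 102289156 (-0.57) were called too (adjusted p = 0.0175, 0.00672, 0.0106 and 0.0122, limma). With a pseudocount of 1 the calls at chromosome 11, 83459699 (-0.24) and chromosome 4 (-0.13) were lost, and the ratio at the chromosome 3 rise at 60799511 went from -0.16 (adjusted p = 0.353) to -0.57 (adjusted p = 0.000818, limma). Without both replicate 4 libraries the calls at chromosome 1 (adjusted p = 0.0783), chromosome 4 (0.0511) and chromosome 11, 102289156 (0.0630) were lost, and that at chromosome 1 also without untreated replicate 2 (0.0541, limma).

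Ratios higher with IL-4 were called for 2 antisense transcripts. A further one, that of the chromosome 11 transcript at 6365765, missed the threshold (0.35 ± 0.14 SE, adjusted p = 0.0918, limma) and passed it with a pseudocount of 1 (0.0416) and without untreated replicate 3 (0.0269). At chromosome 12, 103206304, the ratio rose by 0.26 ± 0.08 (SE; adjusted p = 0.0359, limma), which was lost with the replicate block (0.0796), without a filter on FPKM (0.0665), after quantile normalization (0.0566), when any of 6 libraries was left out (0.0511 to 0.0972) and without both replicate 4 libraries (0.136). At chromosome 8 a transcript overlapping its coding partner at the 3′ end (83472867 to 83509812, 6093 nt, 51.3% shared), chosen for mention after its values were seen, went from 0.707 ± 0.0730 to 1.18 ± 0.0625 FPKM (mean ± SD, n = 4) while the partner stood at 8.67 ± 0.216 and 8.93 ± 0.591 FPKM. Its ratio rose by 0.63 ± 0.16 (SE; adjusted p = 0.0145, limma).

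Read counts per locus gave a second measure. Of the 264 antisense loci, 234 hold no reference transcript, and the counts of the other 30 loci mix annotated and unannotated transcripts. Because the kit does not mark strand, reads counted for the 234 loci may also come from RNA of the sense strand. Whether they do was not tested. In the 234 loci, 131 passed the count filter of edgeR and 77 of these were called (58.8%, against 51.8% of 13761 loci), 32 higher with IL-4 (24.4%, against 25.6%) and 45 lower (34.4%, against 26.2%). The median log2 fold change was -0.24 in the antisense loci and -0.02 in all loci tested. In contrast to FPKM, where rises outnumbered falls, falls were the more frequent by counts, over a set of loci that is only in part the same.

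Some of the largest rises by counts were at loci whose antisense transcripts did not pass the FPKM filter; the 3 with the largest fitted rise, all on loci without a reference transcript, were chosen for mention after their values were seen. On chromosome 10 an antisense locus (68241275 to 68250107, 2 exons, 45.5% shared) had 0, 1, 0 and 0 reads untreated and 153, 287, 255 and 152 with IL-4 (adjusted p = 1.58e-07, edgeR). Its coding partner (68186494 to 68245402) had 0, 8, 5 and 3 reads untreated and 2339, 3534, 3109 and 2240 with IL-4 (log2 fold change 9.43 ± 0.32 SE, adjusted p = 4.01e-09, edgeR). Both sides of this pair were near 0 untreated and high in every IL-4 library.

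On chromosome 14 an antisense locus (44534257 to 44567266) enclosing a coding partner had 0 reads in every untreated library and 57, 73, 68 and 35 with IL-4 (adjusted p = 1.58e-05, edgeR), while the partner had 1 read in all 8 libraries together. A second chromosome 10 locus (9946151 to 10016868, 6 antisense isoforms) enclosing a non-coding partner had 0, 8, 4 and 19 reads untreated and 1229, 2574, 2055 and 1272 with IL-4 (log2 fold change 7.84 ± 0.46 SE, adjusted p = 1.63e-07, edgeR). No read was counted for the partner of the latter. By the same measure the chromosome 18 locus at 62904107 rose by 5.73 ± 0.38 on the log2 scale (SE; adjusted p = 3.93e-07, edgeR).

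Counts and FPKM differed most where exons were shared. No read was counted in any of the 8 libraries for 46 of the 234 loci, although 45 of these had an FPKM above 0. All 35 loci whose exonic nt lay entirely over partner exons were among the 46. By sharing, 44 of 136 loci with 50% or more of their exonic nt shared had no counted read, against 1 of 79 with a smaller part shared and 1 of 19 with none. Whether reads over shared exons were left out of the counting was not tested.

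Where both loci of a pair passed the count filter (97 pairs), both were called in 34, with 30 in the same direction (30.9%, against 20.3% of 1479 pairs of loci with overlapping exons on opposite strands) and 4 in opposite directions (4.12%, against 5.81%). The fold changes had a Pearson correlation of 0.81 and a Spearman's rho of 0.60 over the 97 pairs. The 97 pairs include 12 that share no exonic nt, a kind left out of the 1479. In these 12 pairs, 5 were called on both sides, 4 of them in the same direction, and rho was 0.62.

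The 4 opposite pairs by counts, all with coding partners, were chosen for mention after their values were seen; none of their transcripts reached the FPKM filter. On chromosome 12 an antisense locus (115629755 to 115642577) without shared exonic nt had 4, 6, 4 and 3 reads untreated and 22, 19, 11 and 16 with IL-4 (log2 fold change 1.99 ± 0.31 SE, adjusted p = 0.000257, edgeR). The locus around it (114493110 to 117248164, 39 transcripts) went from 1192 to 1344 reads untreated down to 144 to 317 with IL-4 (-2.48 ± 0.16 SE, adjusted p = 3.62e-07, edgeR). Whether this long span is a single gene was not examined. Neither side overlapped between the groups, and antisense reads were few.

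On the X chromosome an antisense locus of long exons (158938260 to 158968278, 26267 nt, 2.34% shared) had 157, 248, 302 and 243 reads untreated and 595, 1237, 1023 and 765 with IL-4 (1.95 ± 0.24 SE, adjusted p = 5.06e-05, edgeR). Its partner (158849765 to 159081580) had 2157, 2770, 2490 and 2131 reads untreated and 1233, 1340, 1010 and 1329 with IL-4 (-0.94 ± 0.08 SE, adjusted p = 2.84e-06, edgeR). All IL-4 libraries were above the untreated ones on the antisense side and below them on the sense side.

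The other opposite pairs had a falling antisense locus. On chromosome 12 (3754064 to 3781391, 19.8% shared) it had 12, 15, 16 and 12 reads untreated and 7, 6, 3 and 6 with IL-4 (-1.29 ± 0.28 SE, adjusted p = 0.00292, edgeR), and the partner rose from 48 to 69 reads to 102 to 140 (1.08 ± 0.16 SE, adjusted p = 0.000196, edgeR). On chromosome 1 the locus at 59358060 to 59373326, with 10 antisense isoforms, had 360, 425, 345 and 491 reads untreated and 190, 206, 159 and 228 with IL-4 (-1.03 ± 0.13 SE, adjusted p = 6.47e-05, edgeR). Its partner had 85 to 157 reads untreated and 129 to 210 with IL-4, with overlapping groups (0.56 ± 0.18 SE, adjusted p = 0.0252, edgeR); this call was lost without IL-4 replicate 1, without untreated replicate 2, 3 or 4, and without both replicate 4 libraries (adjusted p = 0.0635 to 0.0856, edgeR).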

How the data were processed

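RNA from 4 untreated and 4 IL-4-treated macrophage cultures was sequenced. The authors deposited raw read counts per merged locus, FPKM per merged transcript and the merged annotation. CASAVA 1.8.2, TopHat2 2.0.9, Cufflinks 2.1.1, HTSeq and genome build mm9 are named per the submitters' processing notes; their settings are not given in the sources used here. Per the file headers, columns carry the library names in the labels, and 0 columns were left without a sample.

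Antisense transcripts, their partners and the lists were chosen with earlier results of these data known. FPKM were tested as log2(FPKM + 0.1) with limma 3.58.1 (variance trend; 1 FPKM or more in 4 or more libraries), locus levels as summed FPKM and the ratio likewise, each over all features; deposited counts were tested with edgeR 4.0.16 (quasi-likelihood, TMM, filterByExpr) in R 4.3.3, with DESeq2 1.42.0 as an alternative. P-values are 2-sided and Benjamini-Hochberg adjusted, with a threshold of 0.05. The ratio fit takes pairs that share exonic nt. The code was tested on simulated data.

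Named transcripts are the 10 largest called rises and 10 largest called falls by log2 fold change, the 5 highest in mean FPKM, and pairs called in opposite directions (none was found by FPKM); others are marked as chosen after their values were seen.

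The labels number the replicates 1 to 4 in both groups. Deviations of same-numbered libraries from their group means correlated at 0.390, 0.148, 0.225 and 0.177, all above the threshold of 0.1 set for this check. Differently numbered pairs ranged from -0.267 to 0.259, the highest being untreated replicate 3 with IL-4 replicate 2. Untreated replicate 2 with IL-4 replicate 3 (0.131) and untreated replicate 1 with IL-4 replicate 4 (0.120) also passed 0.1. Not every library therefore correlated best with its own number, and whether the numbers pair the libraries stayed unsettled. The main tests leave the replicate number out. It served as a block in an alternative fit, and the blocked value is printed where it changes a call. Other alternatives were pseudocounts of 0.01 and 1, other filters, quantile or DESeq2 normalization, another partner or partner level, and leaving out each library. Library totals of 23071022 to 27783417 counts limit the precision of low transcripts.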

Additional observations from a re-analysis of the deposited data

Results flagged for a closer look

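Within the groups of 4 libraries, 89 groups of values named in the report were looked at and 4 had 1 library set apart from the other 3; chance alone sets apart about 1 in 20 such groups. Of the antisense transcripts, that at chromosome 12, 103206304 had 9.96 FPKM in untreated replicate 1 against 11.5 to 11.8 FPKM in the other untreated libraries. The remaining cases were partner loci with levels far below 1 FPKM. The partner of the 241-nt chromosome 1 transcript had 0.0227 FPKM in untreated replicate 1 against 0.0478 to 0.0502 FPKM. The partner of the chromosome 17 rise at 71009247 had 5.16e-217 FPKM in untreated replicate 1, a value that is 0 in practice, against 0.0123 to 0.0142 FPKM. The partner of the chromosome 3 isoforms at 31131761 and 31131840 had 0.0564 FPKM in untreated replicate 4 against 1.19e-06 to 0.00254 FPKM.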

How the results depend on the processing

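Counts of called features depended mostly on the FPKM filter. Requiring at least 5 FPKM left 8 called antisense transcripts (7 higher, 1 lower), 32 lower partner loci, 2 same-direction pairs and 1 ratio call (1 higher, 0 lower). With no filter these became 103 antisense transcripts (52 higher, 51 lower), 65 same-direction and 4 opposite pairs, and 64 ratios (25 higher, 39 lower). Among transcripts with under 50% of their exonic nt shared there were 12 rises, 9 same-direction pairs and 11 ratio calls (1 higher, 10 lower). Leaving out both replicate 4 libraries, chosen after seeing the data, gave 10 ratio calls (1 higher, 9 lower). Higher ratios numbered 1 after quantile normalization, 1 with the replicate block, and 1 with the block when pairs without shared nt, an alternative added after seeing the data, were included; the opposite pairs numbered 1 with the replicate block and 1 with the partner level taken from its most abundant transcript. The block left 35 antisense transcripts, 116 partner loci, 83 antisense loci by counts, 15 same-direction pairs and 15 ratios called; among the named results it changed only the calls given in the report.

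Leaving out 1 library at a time gave 33 to 38 called antisense transcripts (18 to 19 higher, 14 to 19 lower), 98 to 123 partner loci (54 to 71 higher, 42 to 52 lower), 14 to 17 same-direction and 0 to 1 opposite pairs, 12 to 19 ratios (1 to 3 higher, 11 to 18 lower) and 69 to 78 antisense loci by counts (30 to 33 higher, 38 to 47 lower). Over 73 single results, 1114 alternative values were computed: 1069 were counted as unchanged, 38 lost the call, 7 gained one and no called result changed sign. A change of sign in a result that was not called was counted as unchanged. Causes of these changes were not tested, apart from the smaller sets of features and libraries that the filters and omissions leave. Low levels limit what can be seen: 14.9% of antisense transcripts and 19.6% of all transcripts could be tested on FPKM.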
